A study of Mus musculus with 58 samples.

Results

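Cells of the mouse embryonic pancreas sorted by an insulin promoter reporter at embryonic stage E12.5, in days, were set against cells sorted as live at the same stage. The cells are all wells of the 4 plates of this stage with at least 2000 transcripts and at least 500 detected genes, without spike-ins. They number 1092 of the 4318 such cells on the 15 plates of the study. MIP-GFP is a transgene in which the mouse insulin promoter drives green fluorescent protein (GFP), and MIP-GFP cells were gated on GFP by flow cytometry. Live cells were gated on a viability dye, without GFP. All cells of both sorts came from embryos of mip-gfp mice, with no other allele, agent or treatment in the labels. They were sorted into 384-well plates for SORT-seq, in which transcripts are counted with unique molecular identifiers (UMIs). Levels below are counts per gene scaled to a common total (CPM), over the cells of a plate or a class. Each sort was done in 2 experiments, numbered EP11 and EP18. The cells retained were 349 (EP11) and 173 (EP18) in the MIP-GFP sort, and 351 (EP11) and 219 (EP18) in the live sort. The labels do not say how many embryos or litters each plate drew on, so p-values below measure only the spread between these experiments. Transcripts of Xist were found in 31.5% to 56.7% of the cells of each plate and of the Y-linked Ddx3y in 26.0% to 46.4%, so every plate held both.

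The stage of the MIP-GFP cells carries a conflict. The developmental stage in the labels is E12.5 for all 4 plates, but the titles of the 8 MIP-GFP libraries of EP11 and EP18 name E15.5. The titles of the live libraries name E12.5. Stage below is the labelled developmental stage, and a comparison with the 2 experiments of E15.5 is given last. The MIP-GFP plates held 9490716 (EP11) and 2017358 (EP18) transcripts, with a median per cell of 27218 and 9644. The live plates held 8038954 (EP11) and 2247172 (EP18), with a median per cell of 20320 and 7557. EP11 thus held more transcripts per cell than EP18 in both sorts. The labels list 3 libraries for the live plate of EP11, whose 384 wells all held transcripts, so part of them could come from a library not listed for that plate. The labels also hold 1 library of each sort at E12.5 with no plate name, and the titles of both name E12.5.

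The first endocrine cells of the mouse pancreas arise from the epithelium before the main wave of endocrine formation, and many of them make glucagon. They pass through a short stage with the transcription factor Neurog3, leave the cell cycle, and build a regulated secretory pathway around their hormone. Insulin is made from 2 genes in mice, Ins1 and Ins2, and beta cells with high insulin are rare before the main wave.

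Because the sort rests on an insulin promoter, the 250 bases before the start of Ins1 are shown beside those of Iapp, which encodes the hormone amylin of beta cells, and of Gcg, which encodes glucagon. The sequences are from RefSeq, build GRCm38.p6, written 5′ to 3′ along the gene's strand. The plus strand holds Ins1 at chr19:52264047-52264296 and Iapp at chr6:142298175-142298424, and the minus strand holds Gcg at chr2:62483654-62483903. Capitals mark matches, on either strand, to CATCTG (an E box), TAAT (the core of many homeodomain sites) or TATAAA (the TATA box).
Ins1: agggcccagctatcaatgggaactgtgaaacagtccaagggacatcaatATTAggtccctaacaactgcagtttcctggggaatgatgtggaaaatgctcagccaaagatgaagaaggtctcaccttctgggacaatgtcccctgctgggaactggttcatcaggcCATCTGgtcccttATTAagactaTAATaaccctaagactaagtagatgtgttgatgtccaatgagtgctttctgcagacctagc
Iapp: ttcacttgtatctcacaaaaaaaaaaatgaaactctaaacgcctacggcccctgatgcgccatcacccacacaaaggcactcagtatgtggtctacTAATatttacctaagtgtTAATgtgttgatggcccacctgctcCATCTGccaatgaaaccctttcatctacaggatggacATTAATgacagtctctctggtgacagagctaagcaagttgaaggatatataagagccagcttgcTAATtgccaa
Gcg: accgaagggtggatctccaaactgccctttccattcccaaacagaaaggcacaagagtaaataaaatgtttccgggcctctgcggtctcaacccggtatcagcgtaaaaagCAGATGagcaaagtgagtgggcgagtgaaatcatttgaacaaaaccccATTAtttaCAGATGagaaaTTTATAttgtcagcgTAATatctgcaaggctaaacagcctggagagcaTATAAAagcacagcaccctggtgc
CATCTG was matched 1 time in Ins1, 1 time in Iapp and 2 times in Gcg. Its match in Ins1 lay 79 to 84 bases before the start, and 1 of those in Gcg lay 78 to 83 bases before it. TAAT was matched 3 times in Ins1, 5 times in Iapp, where 2 matches overlap, and 2 times in Gcg, and TATAAA 2 times in Gcg. TGACG, the core of cyclic AMP response elements, was searched too and had no match in these windows. Of 27025 mouse promoters of the same length, 14.48% held CATCTG, 55.3% TAAT, 13.0% TATAAA and 17.9% TGACG. All these matches are letters only, and the data do not measure what binds there.

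Cells were placed in classes by fixed rules. A hormone gate held cells in which a hormone (Ins1 plus Ins2, Gcg, Sst, Ppy or Ghrl) reached 1% of all transcripts and 3 times the next hormone. All other cells went to the class with the most detected markers of 8, with at least 3 and no tie. The MIP-GFP sort of E12.5 was mostly glucagon cells. The glucagon gate held 256 of 349 cells in MIP-GFP EP11 (73.4%, Wilson 95% interval 68.5% to 77.7%) and 99 of 173 in MIP-GFP EP18 (57.2%, 49.8% to 64.4%). In the live sort it held 6 of 351 cells in EP11 (1.71%, 0.786% to 3.68%) and 11 of 219 in EP18 (5.02%, 2.83% to 8.77%). Both MIP-GFP plates were above both live plates. With 2 plates against 2, an exact permutation test cannot go below a two-sided p of 0.333, so no test is given for shares. Intervals cover counting error only. No cell of the 4 plates passed the insulin, somatostatin, pancreatic polypeptide or ghrelin gate, which allows a share of up to 0.860% (MIP-GFP EP11), 1.73% (MIP-GFP EP18), 0.855% (live EP11) and 1.37% (live EP18).

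**Figure D1:**
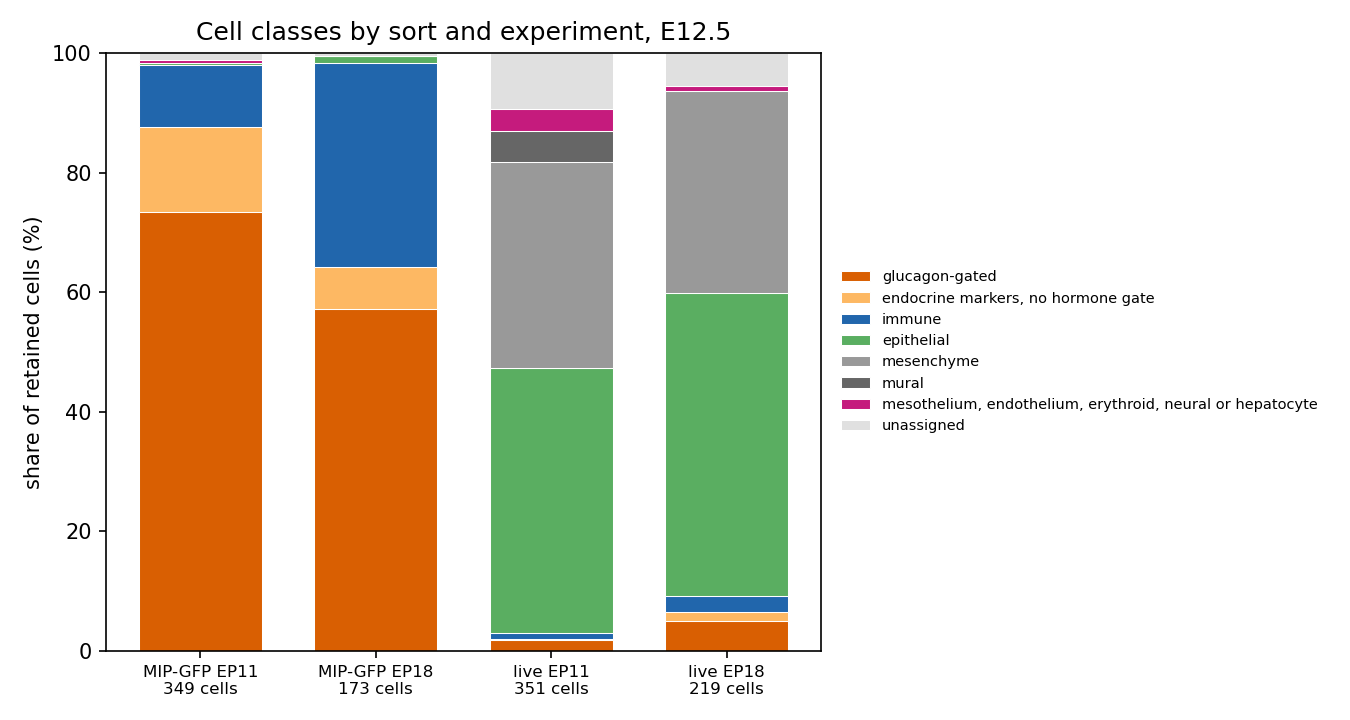
Share of retained cells (%, vertical axis) in each class on the 4 plates of E12.5, with MIP-GFP EP11 and EP18 left of live EP11 and EP18. Glucagon-gated cells make up 73.4% and 57.2% of the MIP-GFP plates, against 1.71% and 5.02% of the live plates.

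Cells with endocrine markers but outside every hormone gate came next in MIP-GFP EP11. They numbered 50 cells (14.3%) in MIP-GFP EP11 and 12 (6.94%) in MIP-GFP EP18, against 1 (0.285%) in live EP11 and 3 (1.37%) in live EP18. Some cells lay near the gate. Those with Gcg at 0.5% to 1% of their transcripts numbered 16 and 6 in MIP-GFP EP11 and EP18, against 0 and 4 in live EP11 and EP18. Those at 1% to 2% numbered 27 and 14 in MIP-GFP EP11 and EP18, against 2 and 2 in live EP11 and EP18. Immune cells made up 36 cells (10.3%, 7.54% to 13.95%) in MIP-GFP EP11 and 59 (34.1%, 27.45% to 41.4%) in MIP-GFP EP18. In the live sort they numbered 3 (0.855%) in EP11 and 6 (2.74%) in EP18. Among cells outside the immune class, the glucagon share was 81.8% and 86.8% in MIP-GFP EP11 and EP18, against 1.72% and 5.16% in live EP11 and EP18.

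The live sort held what the MIP-GFP sort nearly lacked. Epithelial cells numbered 1 and 2 in MIP-GFP EP11 and EP18, against 156 (44.4%) and 111 (50.7%) in live EP11 and EP18. Mesenchyme was at 0 of 349 and 0 of 173 cells in the MIP-GFP sort, which allows up to 0.860% and 1.73%. It took 121 (34.5%) and 74 (33.8%) cells in live EP11 and EP18. The remaining MIP-GFP cells were 2 hepatocyte-gated cells in EP11, and 4 (EP11) and 1 (EP18) unassigned. Of the live cells, 33 (EP11) and 12 (EP18) were unassigned.

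Insulin, whose promoter drives the reporter, was low but present. At least 1 transcript of Ins1 or Ins2 was found in 59.6% of cells in MIP-GFP EP11 and 54.3% in MIP-GFP EP18, against 1.42% in live EP11 and 3.65% in live EP18. Within glucagon-gated cells it was found in 174 of 256 (68.0%, 62.0% to 73.4%) in MIP-GFP EP11 and 69 of 99 (69.7%, 60.05% to 77.9%) in MIP-GFP EP18. In the live sort it was found in 3 of 6 glucagon-gated cells in EP11 and 5 of 11 in EP18. In immune cells, which should lack insulin, the share was 13.9% and 27.1% in MIP-GFP EP11 and EP18. The part of RNA from other wells in these counts was not tested. Median depths were 28425 and 9808 transcripts in glucagon-gated cells and 20295 and 10555 in immune cells of MIP-GFP EP11 and EP18. At 2000 transcripts per cell, the share in glucagon-gated cells was 27.3% and 44.4% in MIP-GFP EP11 and EP18, against 16.7% and 27.3% in live EP11 and EP18.

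In level, glucagon-gated cells stood well above immune cells. Summed over cells, insulin transcripts were 289 CPM in glucagon-gated cells of MIP-GFP EP11 and 518 in those of MIP-GFP EP18, against 165 in live EP11 and 189 in live EP18. Endocrine cells outside the gates had 685 CPM in MIP-GFP EP11 and 2332 in MIP-GFP EP18, where the highest cell held 184 of 261 insulin transcripts. Immune cells had 6.41 and 30.45 CPM in MIP-GFP EP11 and EP18. The insulin was uneven between glucagon-gated cells. At least 10 insulin transcripts were found in 56 of 256 (21.9%) in MIP-GFP EP11 and 17 of 99 (17.2%) in MIP-GFP EP18, and the tenth of the cells with the most held 61.1% and 57.0% of the insulin transcripts. Even so, the highest insulin share of any glucagon-gated cell was 0.400% in MIP-GFP EP11 and 0.349% in MIP-GFP EP18. In these cells Gcg took a median of 4.14% and 4.29% of the transcripts. GFP itself was not analysed here. Reads of Ins1 and Ins2 could be split between these close copies, so each gene's own value is less certain than their sum.

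**Figure D2:**
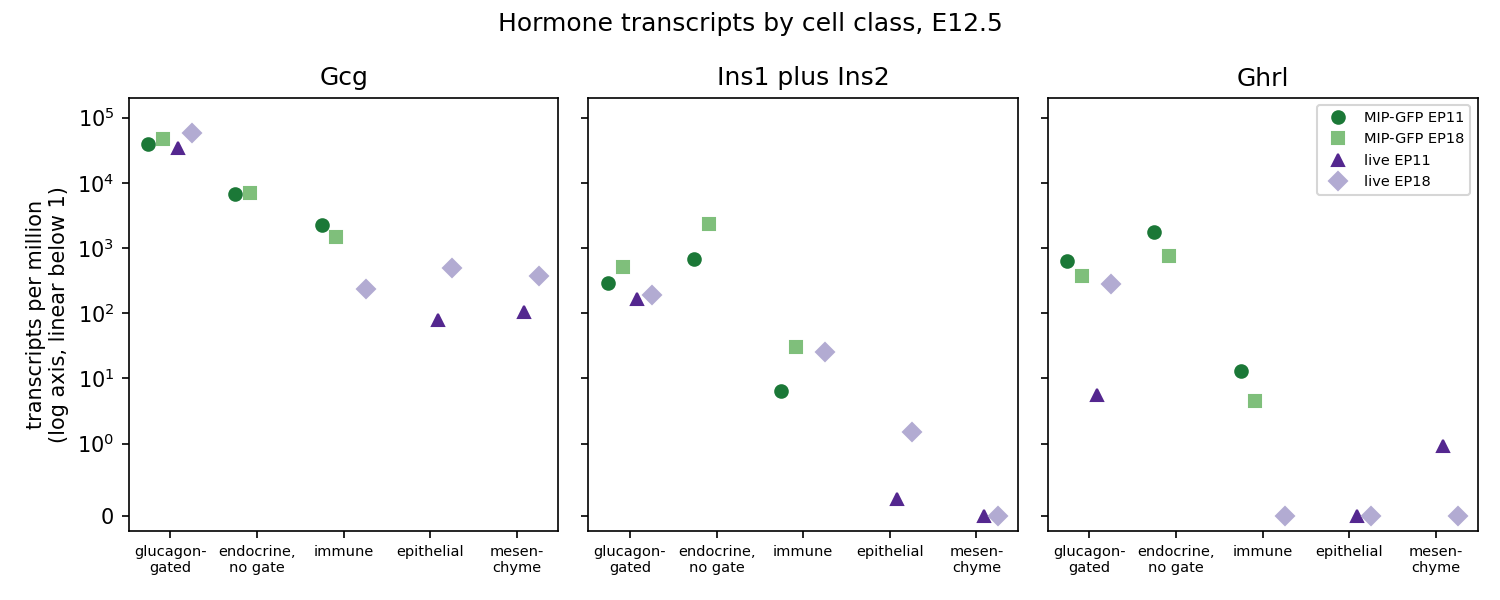
CPM (log axis, linear below 1) of Gcg, of Ins1 plus Ins2 and of Ghrl in each cell class of E12.5, 1 point per plate with at least 5 cells of the class. Insulin lies at 289 and 518 CPM in MIP-GFP glucagon-gated cells, against 165 and 189 in live glucagon-gated cells, and at 6.41 and 30.45 in MIP-GFP immune cells.

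Endocrine transcripts were also found in immune cells. Gcg had 39710 and 46480 CPM in glucagon-gated cells of MIP-GFP EP11 and EP18, against 34470 and 57320 in those of live EP11 and EP18. In immune cells it had 2223 and 1495 CPM in MIP-GFP EP11 and EP18. Over the endocrine genes measured in both classes, the level in immune cells was a median of 2.09% of that in glucagon-gated cells in MIP-GFP EP11 (30 genes, 0.639% to 16.1%) and 1.69% in MIP-GFP EP18 (32 genes, 0 to 15.6%). The gene counts are capped near 1597 transcripts per cell. Gcg lay at that cap in 95 and 5 cells of MIP-GFP EP11 and EP18, against 3 and 0 cells of live EP11 and EP18, so its level in EP11 is understated.

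Irx1 and Isl1 had like levels in the glucagon-gated cells of both sorts. Irx1, a transcription factor of alpha cells, had 479 and 520 CPM in those of MIP-GFP EP11 and EP18, against 402 and 438 in those of live EP11 and EP18. Isl1, needed for endocrine cells to form, had 1560 and 1511 CPM in MIP-GFP, against 1620 and 1126 in live. For both genes the values of the sorts lay close together, and the live values rest on 6 and 11 cells. Other genes did not match in this way. Ttr, which encodes transthyretin, had 10420 and 9060 CPM in MIP-GFP EP11 and EP18, against 5890 and 5977 in live EP11 and EP18. Ghrl, which encodes ghrelin, the hormone of epsilon cells, was less even, at 630 and 373 CPM in MIP-GFP EP11 and EP18, against 5.60 and 284 in live EP11 and EP18. At least 10 Ghrl transcripts were found in 78 and 11 glucagon-gated cells of MIP-GFP EP11 and EP18, of which 27 and 4 also had at least 10 insulin transcripts.

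A test of all genes within glucagon-gated cells was fitted after no class had the planned 10 cells in each of the 4 sums. In edgeR's quasi-likelihood test it called 0 of 8404 genes, with 224 at an unadjusted p under 0.05, and DESeq2 called 18, all lower in MIP-GFP. Ins1 had 246 and 324 CPM in MIP-GFP EP11 and EP18, against 28.0 and 155 in live EP11 and EP18, a log2 fold change of 1.78 ± 0.67 (SE, edgeR adjusted p = 0.9999). Ins2 had 43.4 and 194 CPM in MIP-GFP, against 140.0 and 33.2 in live, with overlapping groups and a log2 fold change of 0.27 ± 0.80 (edgeR adjusted p = 0.9999). Gip, which encodes an incretin hormone, had 104 and 108 CPM in MIP-GFP, against 39.2 and 22.1 in live, a log2 fold change of 1.67 ± 0.48 (edgeR adjusted p = 0.9999). Gcg is not compared here, since the gate selects cells by it. The same gate holds Ins1, Ins2 and Ghrl below Gcg in every cell, so their range was bounded in advance. With 6 and 11 live cells the values of Ins1, Ins2 and Gip do not show that the sorts are alike.

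Endocrine cells outside the hormone gates differed in their hormones from the glucagon-gated cells of the same plates. The 50 and 12 such cells of MIP-GFP EP11 and EP18 had 649 and 489 Gip CPM, and they held 50.3% and 28.9% of the Gip transcripts of their plates. Their Iapp was 1398 and 5029 CPM, against 600 and 2161 in glucagon-gated cells of MIP-GFP EP11 and EP18. Few cells carried this Iapp, and in MIP-GFP EP18 the highest endocrine cell held 418 of 563 transcripts. The median endocrine cell had 3.02 and 2.02 Iapp transcripts, against 6.07 and 5.05 in glucagon-gated cells, which were deeper. At 2000 transcripts per cell, Iapp was found in 36.0% and 50.0% of endocrine cells, against 36.7% and 65.7% of glucagon-gated cells. Neurog3, the factor that starts endocrine fate, had 305 and 0 CPM in the endocrine cells, against 3.58 and 6.55 in glucagon-gated cells. These classes were defined by hormone levels, so the values are a description without a test.

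The immune cells of the MIP-GFP sort carried macrophage genes. C1qb, a complement subunit made by macrophages, had 2318 and 2121 CPM in immune cells of MIP-GFP EP11 and EP18, against 1576 and 2333 in those of live EP11 and EP18. Csf1r, the receptor of the macrophage growth factor, had 2034 and 2141 CPM in MIP-GFP, against 1216 and 2934 in live. Mrc1, the mannose receptor of tissue macrophages, had 3028 and 3458 CPM in MIP-GFP, against 2345 and 4517 in live. Levels of the sorts overlapped for all of them. The neutrophil genes Elane and Mpo were at 0 in immune cells of both MIP-GFP plates, against 69.3 and 1722 CPM in the 3 immune cells of live EP11 and 0 in those of live EP18. The neutrophil genes S100a9 and Retnlg were at 1.52 CPM each in immune cells of MIP-GFP EP18, where 2 transcripts equal 3.04 CPM. They were at 0 in immune cells of both live plates. There 1 transcript equals 23.0 (EP11) and 25.6 CPM (EP18), so these 2 genes give no direction between the sorts. The mast cell and lymphoid genes Cpa3, Cma1, Cd3e and Il7r were at 0 in immune cells of all 4 plates. These genes were listed after the immune cells had been seen.

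The sums of all retained cells per experiment and sort were then compared across 13141 genes with edgeR's quasi-likelihood test at a Benjamini-Hochberg adjusted p under 0.05. In MIP-GFP, 1120 genes were higher (8.52% of those tested) and 1256 were lower (9.56%). Both MIP-GFP sums lay above both live sums for 4233 genes (32.2%) and below them for 3628 (27.6%). These shares over all genes are the background for the counts of list members below. Because sums of cells were compared, more cells of a type and more RNA per cell cannot be told apart. Of the hormone genes, 11 of 12 rose in MIP-GFP and none fell, with a median log2 fold change of 5.01, against −0.07 over all genes tested. Ghrl had 710 and 302 CPM in MIP-GFP EP11 and EP18, against 0.871 and 11.6 in live EP11 and EP18. Its log2 fold change was 6.39 ± 1.17 (SE, edgeR adjusted p = 0.0132). Ins1, on chromosome 19 (GRCm38, 52264297 to 52265476), had 270 and 246.5 CPM in MIP-GFP, against 0.746 and 7.12 in live, a log2 fold change of 6.23 ± 0.94 (edgeR adjusted p = 0.00723). Ins2, on chromosome 7, had 54.9 and 216 CPM in MIP-GFP, against 3.23 and 1.78 in live, a log2 fold change of 5.57 ± 0.81 (edgeR adjusted p = 0.00635). The 2 MIP-GFP sums lay far above both live sums for all 3 genes. Pyy, which encodes peptide YY, an early hormone of the pancreas, had 4609 and 8720 CPM in MIP-GFP, against 208 and 362 in live (log2 4.42, edgeR adjusted p = 0.0147), and did not pass without the live sum of EP11 (adjusted p = 0.0687). Sst, which encodes somatostatin, had 331 transcripts in MIP-GFP and 2 in live, a ratio of 148 (counting interval 40.6 to 1227).

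Gcg was the hormone gene that did not pass. It lies on chromosome 2 (GRCm38, 62474530 to 62483650). It had 31650 and 29210 CPM in MIP-GFP EP11 and EP18, against 852 and 2748 in live EP11 and EP18. Counts at the cap, in 95 and 5 cells of MIP-GFP EP11 and EP18 against 3 and 0 of live, understate these levels. The log2 fold change was 3.91 ± 1.18 (SE, edgeR adjusted p = 0.0619), and both MIP-GFP sums were above both live sums. It passed in DESeq2 (adjusted p = 2.44e-10), and in edgeR without immune-gated cells (log2 4.29, adjusted p = 0.0156), with all genes kept (0.000578), with the experiment as replicate block (1.16e-05) and with the cells the authors kept (0.0338).

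**Figure D3:**
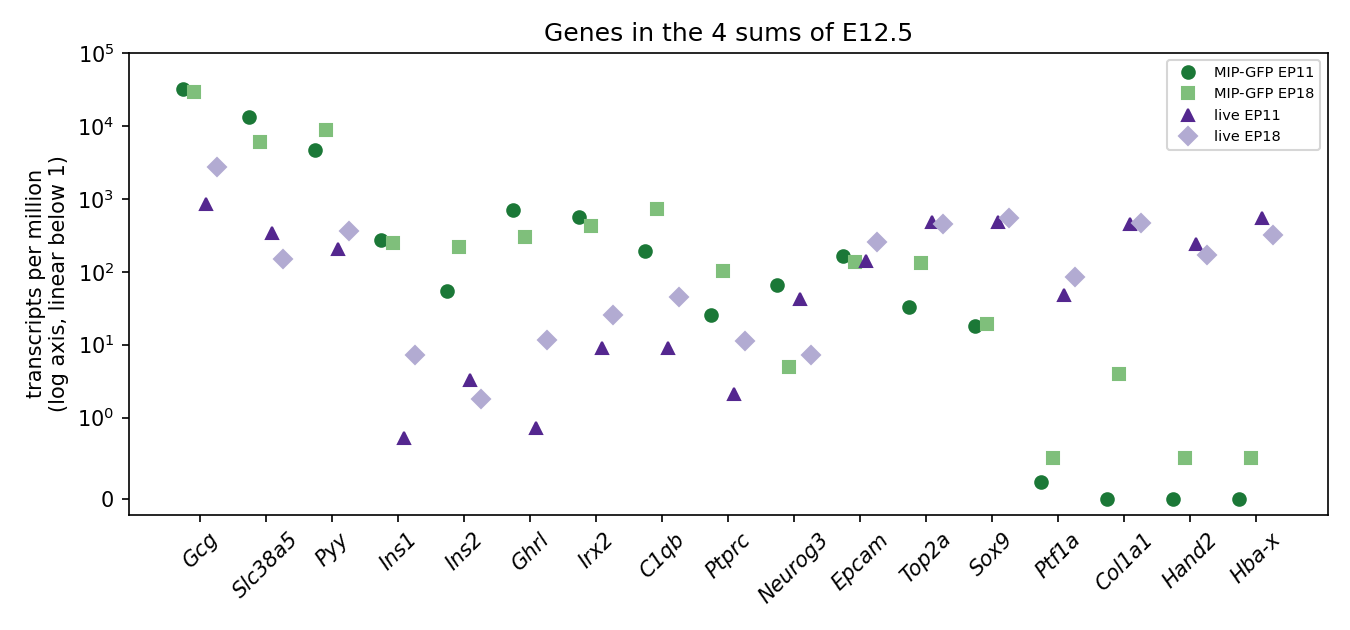
CPM (log axis, linear below 1) of selected genes in the 4 sums of E12.5, with MIP-GFP EP11 and EP18 left of live EP11 and EP18. Ins1 lies at 270 and 246.5 CPM in MIP-GFP against 0.746 and 7.12 in live, and Col1a1 at 0 and 3.97 against 447 and 470.

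Transcription factors of endocrine cells mostly followed the hormones. Of 23 tested, 15 rose in MIP-GFP and 1, Hhex, fell. With the cells the authors kept, 10 of 22 rose. Neurod1, which acts downstream of Neurog3, had 987 and 608.5 CPM in MIP-GFP EP11 and EP18, against 35.6 and 32.5 in live EP11 and EP18 (log2 4.41). Irx2, a factor of alpha cells, had 564 and 429 CPM in MIP-GFP, against 8.96 and 25.4 in live (log2 4.74). Neurog3, Pdx1 and Nkx6-1 did not pass. Neurog3 had 65.3 and 4.96 CPM in MIP-GFP EP11 and EP18, against 42.55 and 7.12 in live EP11 and EP18, with overlapping groups (log2 0.38). Without the MIP-GFP sum of EP11, Neurog3 was lower in MIP-GFP (log2 −2.33, edgeR adjusted p = 0.0468). Without each sum in turn its log2 fold change lay between −2.33 and 2.07. Pdx1, a factor of pancreatic progenitors and beta cells, had 4.43 and 5.455 CPM in MIP-GFP, against 13.2 and 4.45 in live, and Nkx6-1 had 40.0 and 20.3, against 65.7 and 13.8. The groups overlapped for Pdx1 and Nkx6-1.

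Genes of the secretory granule rose in MIP-GFP in 22 of 26 tested, with a median log2 fold change of 3.81 and none lower. Chga, a granule core protein, had 1238 and 650 CPM in MIP-GFP EP11 and EP18, against 29.6 and 21.8 in live EP11 and EP18. Pcsk2, the protease that cuts proglucagon into glucagon, had 1611 and 1086 CPM in MIP-GFP, against 39.3 and 51.2 in live. Mboat4, the enzyme that acylates ghrelin, had 235 and 113 CPM in MIP-GFP, against 2.86 and 4.90 in live, a log2 fold change of 5.44 ± 0.55 (SE, edgeR adjusted p = 0.00255). Of 20 genes of the alpha cell list, 11 rose and 1, Gc, fell. Slc38a5, an amino acid transporter of alpha cells, had 13250 and 5933 CPM in MIP-GFP, against 337 and 150 in live (log2 5.18, edgeR adjusted p = 0.0119), and did not pass with the cells the authors kept (log2 3.94, adjusted p = 0.0527). Of 15 genes of the beta cell list, 9 rose and 1, Slc2a2, fell. Slc30a8, the zinc transporter of granules, had 299 transcripts in MIP-GFP and 1 in live.

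**Figure D4:**
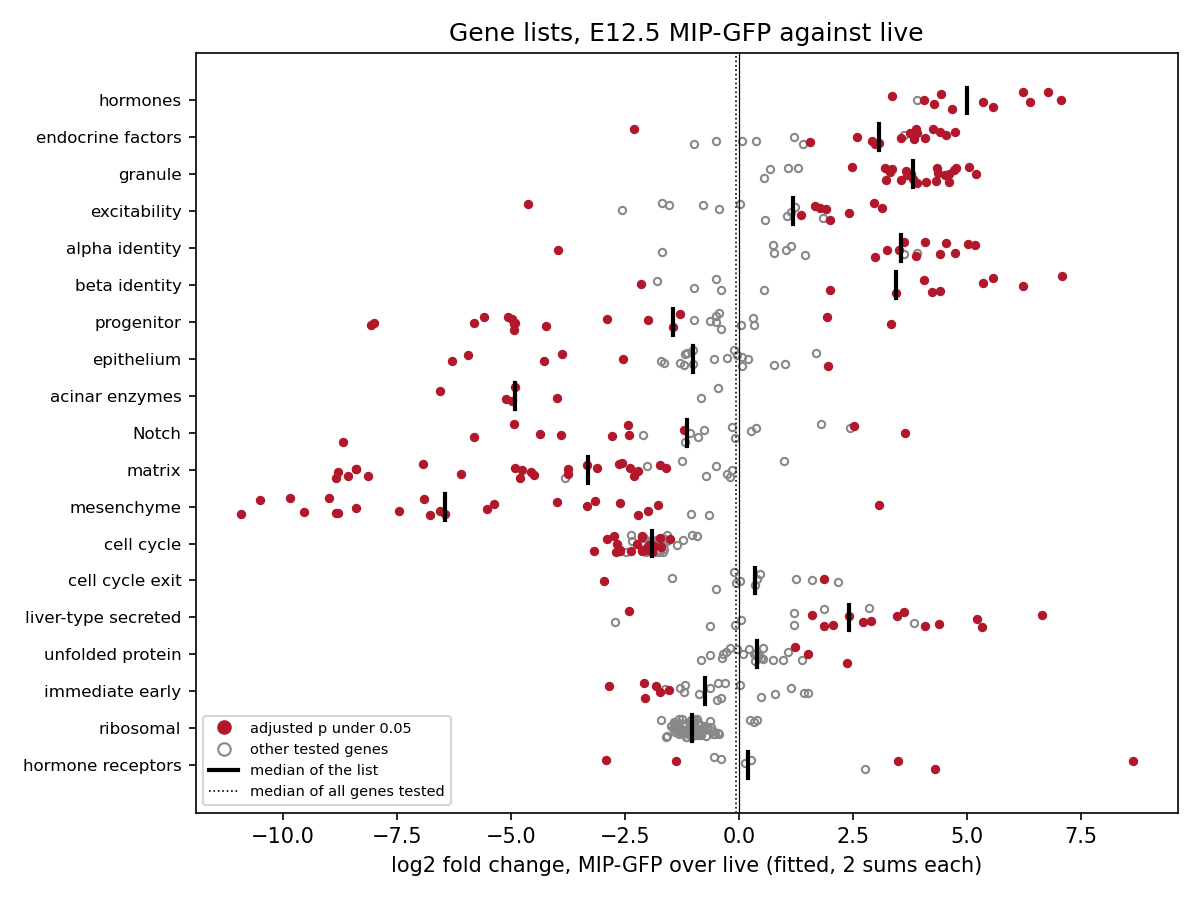
Fitted log2 fold change of MIP-GFP over live (horizontal axis) for each tested gene of 19 lists (rows), with filled points for genes past the threshold and a bar at each list's median. The hormone list has its median at 5.01 and the mesenchyme list at −6.44, against −0.07 for all genes.

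Genes of the progenitor epithelium and of the exocrine lineage were lower. Of 25 genes of the progenitor list, 14 fell in MIP-GFP and 2 rose, Onecut2 and Cited1. Without the MIP-GFP sum of EP18, 8 fell and 2 rose. Sox9, the factor that maintains pancreatic progenitors, had 17.9 and 19.3 CPM in MIP-GFP EP11 and EP18, against 479 and 552.5 in live EP11 and EP18 (log2 −4.93). Ptf1a, the factor of acinar fate, had 3 transcripts in MIP-GFP and 576 in live, a ratio of live over MIP-GFP of 215 (counting interval 73.1 to 1045). Cpa1, a digestive carboxypeptidase of tip cells, had 28.7 and 37.7 CPM in MIP-GFP, against 671 and 1222 in live (log2 −4.98). Of 22 Notch pathway genes, 9 fell and 2 rose, and 5 of 20 fell without the live sum of EP11. The receptors Notch1, Notch2 and Notch3, the ligand Jag1 and the target Hes1 were among those that fell, while the ligand Dll3 and the modifier Mfng rose. Epcam, a surface protein of all epithelium, had 165 and 134 CPM in MIP-GFP, against 140 and 255 in live, with overlapping groups (log2 −0.55).

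Most mesenchymal genes were lower in MIP-GFP. Of 25 mesenchymal genes, 22 fell in MIP-GFP and 1 rose, with a median log2 fold change of −6.44, or −5.37 with genes at 0 set to a floor of 3 transcripts. The gene that rose, Isl1, is also an endocrine factor, with 1431 and 1049 CPM in MIP-GFP EP11 and EP18, against 141 and 127 in live EP11 and EP18. Summed over all 27 genes of the list, Isl1 included, the level was 2428 and 2299 CPM in MIP-GFP EP11 and EP18, against 7886 and 8044 in live EP11 and EP18. In glucagon-gated cells the sum was 2440 and 2800 CPM in MIP-GFP, against 3279 and 3724 in live. With the cells the authors kept, 8 of 12 fell and 3 rose. Hand2, a factor of gut mesenchyme, had 0 and 0.496 CPM in MIP-GFP EP11 and EP18, against 240 and 169 in live EP11 and EP18. Col1a1, the main collagen, had 0 and 3.97 CPM in MIP-GFP, against 447 and 470 in live, a log2 fold change of −8.83 ± 1.40 (SE, edgeR adjusted p = 0.00836). Embryonic globins showed the same split. Hbb-bh1 had 0 transcripts in MIP-GFP and 1290 in live, at least 481-fold lower against the floor of 3 transcripts per group. The live sort held 4 and 0 erythroid cells in EP11 and EP18, and reads of globin genes can be shared between copies.

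Cell cycle genes were lower in MIP-GFP and differed between its plates. Of 49 tested, 21 fell and none rose, with a median log2 fold change of −1.91. Top2a, a topoisomerase of dividing cells, had 33.0 and 132 CPM in MIP-GFP EP11 and EP18, against 481 and 452 in live EP11 and EP18. Its log2 fold change was −2.60 (edgeR adjusted p = 0.0407), and −1.86 (adjusted p = 0.0755) without the MIP-GFP sum of EP11. Summed over the list, glucagon-gated cells had 1008 and 1074 CPM in MIP-GFP EP11 and EP18, against 1065 and 2195 in live EP11 and EP18. Immune cells of MIP-GFP EP11 and EP18 had 7172 and 7451, and epithelial cells of live EP11 and EP18 had 8803 and 9044. Without immune-gated cells, 45 of the 49 genes fell, with a median of −3.57, and without glucagon-gated cells 1 of 48 fell, with a median of −0.68. Without the MIP-GFP sum of EP11, 10 of 48 fell, and without that of EP18, 31 of 49. Of 22 immediate early genes, 6 fell and none rose, and 17 fell without immune-gated cells. Without glucagon-gated cells, none fell and 3 rose. Without the MIP-GFP sum of EP11, 3 fell and 4 rose, and without the live sum of EP11, 2 fell and none rose.

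Markers of immune cells were higher in the MIP-GFP sums. Of 8 such markers 4 rose in MIP-GFP, with a median log2 fold change of 3.68. These markers, C1qb among them, define the immune class, so leaving out its cells lowers them by design. Without immune-gated cells 1 of 6 rose, with a median of 2.56. All 8 rose without the MIP-GFP sum of EP11 or without the live sum of EP18, and 1 rose without the MIP-GFP sum of EP18 or without the live sum of EP11. The summed level of all 8 was 723 and 3089 CPM in MIP-GFP EP11 and EP18, against 43.5 and 235 in live EP11 and EP18. C1qb had 194 and 718 CPM in MIP-GFP, against 8.96 and 44.5 in live (log2 4.00, edgeR adjusted p = 0.0332). It did not pass without the MIP-GFP sum of EP18 (log2 2.77, adjusted p = 0.116), without the live sum of EP11 (log2 3.18, adjusted p = 0.0569) or without immune-gated cells (log2 3.41, adjusted p = 0.119). It did not pass either with the spread shared with the sums of E15.5 (log2 4.00, adjusted p = 0.0721). All 8 immune markers were detected on each of the 4 plates, live and MIP-GFP alike.

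Secreted proteins best known from liver were among the genes higher in MIP-GFP. Of 23 tested, 13 rose and 1, Vtn, fell, with a median log2 fold change of 2.41. Without the live sum of EP11, 4 rose and 1 fell, and without the MIP-GFP sum of EP11, 7 rose and 2 fell. Without glucagon-gated cells, 4 of 16 rose. Fgb, a fibrinogen chain, had 220 and 67.4 CPM in MIP-GFP EP11 and EP18, against 2.24 and 4.90 in live EP11 and EP18 (log2 5.33, edgeR adjusted p = 0.00521). Rbp4, the carrier of retinol, had 4022 and 3384 CPM in MIP-GFP, against 238 and 366 in live (log2 3.47). Over the list, glucagon-gated cells had 17830 and 16070 CPM in MIP-GFP, against 12520 and 11820 in live. Epithelial cells had 2514 and 2573 in live EP11 and EP18. For Alb, serum albumin, 93.8% of the transcripts of MIP-GFP EP11 lay in the 2 hepatocyte-gated cells. Its log2 fold change of 5.22 (edgeR adjusted p = 0.0473) was 1.44 (adjusted p = 0.565) without the MIP-GFP sum of EP11, and 7.31 (adjusted p = 0.066) without the live sum of EP11. For Fgb, 10.5% of that plate's transcripts lay in them.

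Ribosomal protein genes had a median log2 fold change of −1.02, but none of 81 was called in edgeR, with 1 at an unadjusted p under 0.05. Of these 81 genes, 45 had both MIP-GFP sums below both live sums, against 27.6% of all genes tested. DESeq2 called 10 lower, and the fit with the experiment as replicate block called 67. Of 24 genes of the unfolded protein response, 3 rose and none fell, close to the 8.52% of all genes that were higher, and none rose without the MIP-GFP sum of EP18.

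The conflict of stage was addressed by setting the MIP-GFP sums of E12.5 against the MIP-GFP sums of E15.5 (EP10 and EP17) in 1 edgeR fit of the 8 sums of both stages. The sums of E12.5 held far less insulin than those of E15.5. Of 13778 genes, 27 were higher at E12.5 (0.196%) and 75 were lower (0.544%). Ins2 had 54.9 and 216 CPM at E12.5, against 12760 and 41320 at E15.5, a log2 fold change of −7.76 ± 1.35 (SE, edgeR adjusted p = 0.0474). Ins1 had 270 and 246.5 CPM at E12.5, against 6853 and 23090 at E15.5, but was not among the genes past the threshold. Insulin-gated cells were 0 of 349 and 0 of 173 in EP11 and EP18, against 39.1% and 64.7% of cells in EP10 and EP17. Glucagon-gated cells were 73.4% and 57.2% in EP11 and EP18, against 15.9% and 11.1% in EP10 and EP17. Nnat, which encodes neuronatin and is imprinted, had 182 and 66.45 CPM at E12.5, against 5650 and 7764 at E15.5 (log2 −5.90, edgeR adjusted p = 0.0242). Sytl4, which encodes the granule docking protein granuphilin, had 7.165 and 6.45 CPM at E12.5, against 434 and 538 at E15.5 (log2 −6.27, edgeR adjusted p = 0.00251). For all of these genes, both sums of E12.5 lay below both sums of E15.5.

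Genes higher at E12.5 included Trf, which encodes transferrin, with 202.5 and 213 CPM at E12.5, against 19.9 and 20.2 at E15.5 (log2 3.28, edgeR adjusted p = 0.00949). Cited1, a transcriptional coregulator, had 472 and 249 CPM at E12.5, against 24.0 and 30.2 at E15.5 (log2 3.61, edgeR adjusted p = 0.0272). Ctsc and Lcp1, which are strongly expressed in leukocytes, were also higher at E12.5 (log2 5.36 and 4.96). Immune-gated cells were 10.3% and 34.1% in EP11 and EP18, against 1.12% and 0.526% in EP10 and EP17. Without 1 experiment the number of genes past the threshold ranged from 11 to 98. It was 19 without EP10, 98 without EP11, 65 without EP17 and 11 without EP18, of which 16, 26, 29 and 10 were among the 102 genes called with all experiments.

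**Figure D5:**
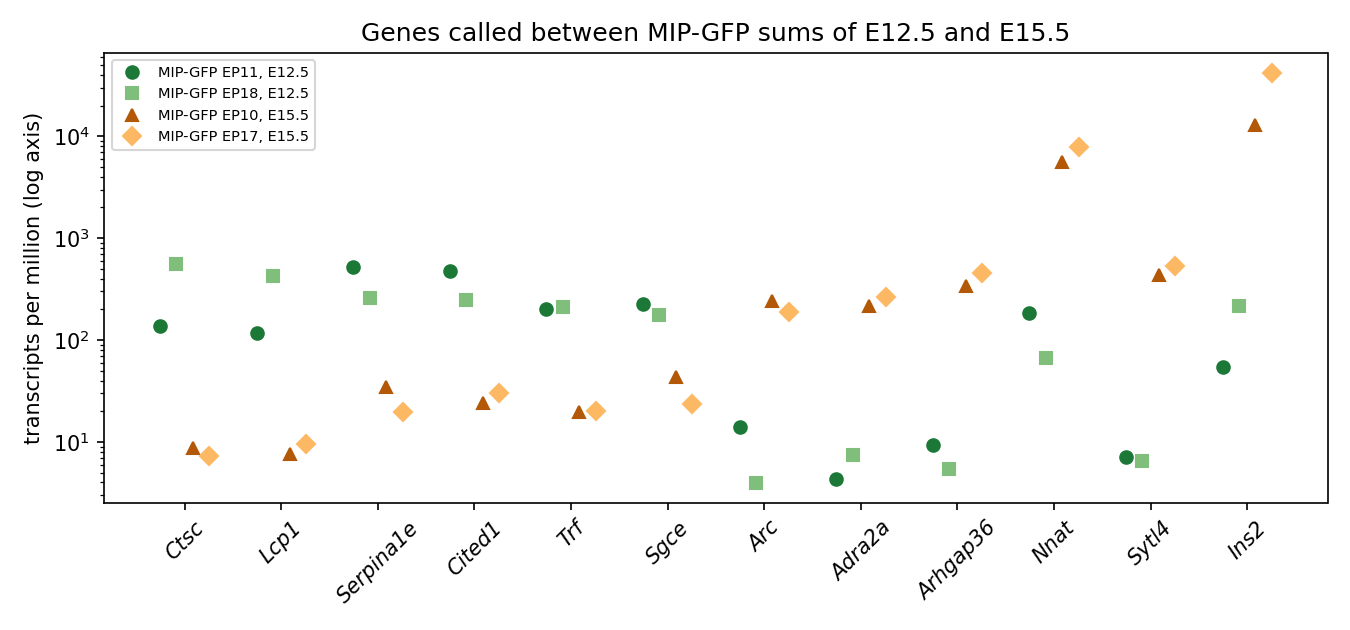
CPM (log axis) of 12 genes in the MIP-GFP sums of E12.5 (EP11, EP18) and E15.5 (EP10, EP17). Ins2 lies at 54.9 and 216 CPM at E12.5, against 12760 and 41320 at E15.5.

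Whether MIP-GFP differed from live by more at E12.5 than at E15.5 was tested in the same fit as a difference of differences. In edgeR 0 of 13778 genes passed (0%), with 1186 at an unadjusted p under 0.05. DESeq2 called 234, and edgeR with the experiment as replicate block called 286. A count of 0 with 2 experiments a stage does not show that the stages are alike.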

How the data were processed

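Expected counts, estimated from UMIs, were deposited by the authors per gene and well in 1 table of all wells, with no scaling for depth. On these plates values lie at or below 1597. The submitters' processing notes name BWA, Seurat and mm10, with no version or order. The assignment of wells to plates came from the column names. In all, 1536 wells whose names matched no library of the labels were not used, nor were the 89 spike-ins in tests. A smaller table of the cells the authors kept served only to choose cells in an alternative.

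Wells with at least 2000 transcripts and 500 genes were summed per experiment and sort, and sums were rounded. They were tested with edgeR 4.0.16 (R 4.3.3; quasi-likelihood, TMM, filterByExpr, Benjamini-Hochberg at 0.05), without the experiment as a block, since the labels do not say what an EP number shares. DESeq2 1.42.0 was an alternative. Levels are CPM of a sum of cells. Bounds use 3 transcripts per group. Doublets were not called, as cells were sorted singly into wells, and wells above 5 times the plate's median were left out as an alternative. RNA from other wells was not subtracted.

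Both fits were tested on simulated data with known changes. In those data the fit of MIP-GFP against live found most of the largest changes and none of the smallest, and the fit of the difference between stages found almost none.

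The cells, gene lists and tests were chosen with earlier results of these data known. Named genes are the 10 largest changes in each direction among well-expressed genes past the threshold, up to 4 per list, and a fixed set. The text gives part of them, and other members of the lists where they are named as exceptions. Coordinates of genes are from GENCODE M21.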

Additional observations from a re-analysis of the deposited data

Results flagged for a closer look

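Ptprc, which encodes the leukocyte antigen CD45, differed between the sorts in opposite directions at the 2 stages. At E12.5 its log2 fold change of MIP-GFP over live, from each experiment's own levels, was 3.08 in EP11 and 3.07 in EP18 (mean 3.08). At E15.5 it was −2.46 in EP10 and −2.28 in EP17 (mean −2.37). In the edgeR fit of all 8 sums the difference between the stages was 6.16 on the log2 scale, with an edgeR adjusted p of 0.281, which does not pass. At E12.5 alone Ptprc had 25.3 and 101 CPM in MIP-GFP EP11 and EP18, against 2.12 and 11.1 in live EP11 and EP18 (log2 3.28, edgeR adjusted p = 0.0634). Its level at E15.5 was low, at 2.56 and 0.560 CPM in MIP-GFP EP10 and EP17, against 18.4 and 6.65 in live EP10 and EP17. Other immune markers did not all reverse at E15.5. C1qb had a log2 fold change of −1.44 in EP10 and 4.58 in EP17, and Laptm5 −1.43 and 1.55. C1qa and Coro1a were lower in MIP-GFP in both experiments, but only slightly in EP17. C1qa had −1.32 in EP10 and −0.18 in EP17, and Coro1a −2.775 and −0.37. Immune-gated cells were 10.3% and 34.1% of the MIP-GFP plates and 0.855% and 2.74% of the live plates of E12.5. At E15.5 they were 1.12% (EP10) and 0.526% (EP17, 1 cell) of the MIP-GFP plates and 3.82% (EP10) and 0.775% (EP17, 1 cell) of the live plates. The part of these cells in the difference for Ptprc was not tested.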

How the results depend on the processing

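The count of 2376 genes between MIP-GFP and live at E12.5 was 1063 with cells thinned to 2000 transcripts, 3654 with all genes kept and 3620 without immune-gated cells. It was 1472 without glucagon-gated cells, an alternative chosen after seeing the data, and ranged from 1048 to 1951 without 1 sum. With the experiment as replicate block it was 4721, and all 2376 genes were among these. The EP numbers are shared by name only. Deviations of the 2 experiments correlated across genes between the sorts with r = 0.48 over 13141 genes. DESeq2 called 2678 genes, and RLE scaling in edgeR 2401. The difference of the sorts between stages, at 0 genes, was 234 in DESeq2, 399 with all genes kept and 286 with the replicate block, and 0 without each experiment. MIP-GFP of E12.5 against E15.5, at 102 genes, was 690 in DESeq2, 964 with all genes kept and 167 without immune-gated cells, and 11 to 98 without 1 experiment. The replicate block could not be fitted there. Of the 102 genes, 26.5% were higher at E12.5. Of those called in the alternatives the share was 56.8% in DESeq2, 56.3% with all genes kept, 32.9% without immune-gated cells, 0% without EP10, 78.6% without EP11, 4.62% without EP17 and 36.4% without EP18. Within glucagon-gated cells, at 0 genes, DESeq2 gave 18, the replicate block 17, and leaving out 1 sum 0 to 17. The cause of these shifts was not tested.

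With a gate of 2% the glucagon share was 66.8% and 49.7% in MIP-GFP EP11 and EP18. With the cells the authors kept it was 82.7% and 96.7% in MIP-GFP EP11 and EP18 and 5.88% in live EP11, and the immune share was 0 on all 4 plates. The share of glucagon-gated cells with insulin at 2000 transcripts per cell was 27.3% and 44.4% in MIP-GFP EP11 and EP18, against 16.7% and 27.3% in live EP11 and EP18. From 2 transcripts it was 49.2% and 54.55% in MIP-GFP EP11 and EP18. Over the named genes and all alternatives, 1477 results kept direction and side of the threshold, 91 no longer passed, 12 newly passed and 6 changed sign without passing in either. Neurog3, not called with all sums, changed sign and passed without the MIP-GFP sum of EP11 (log2 −2.33, edgeR adjusted p = 0.0468). Without each sum in turn its log2 fold change lay between −2.33 and 2.07. The number of cells limits the live glucagon-gated class, at 6 and 11, and transcripts per cell limit EP18.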
